A study of Homo sapiens with 6 samples.

Results

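The genes described are those that encode the subunits of the proteasome. Members were the protein-coding genes of GENCODE release 44 whose symbols consist of PSMA, PSMB, PSMC, PSMD or PSME followed by digits only, which gave 43 of 20033 protein-coding genes. For each gene, the accessible regions within 1000 bp of any of its transcription start sites (TSSs) were taken as its promoter regions, and those in the gene body plus 20 kb on each side as its window. The rule for members uses gene symbols only, but it was set with earlier results of these data known.

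Chromatin accessibility had been profiled by Omni-ATAC, in which a transposase cuts open chromatin, in MM.1S, a multiple myeloma cell line. Cells had been treated for 72 h with 120 nM CB-6644, which blocks the ATPase of the RUVBL1/2 complex, or with the solvent DMSO, and live cells had been isolated by flow sorting. Each group holds 3 libraries, named CB-6644 1 to 3 and DMSO 1 to 3, and both groups are the same single cell line. All 6 libraries come as lists of peaks called separately, so a value exists only where a peak was called.

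The proteasome degrades proteins tagged with ubiquitin. Its barrel-shaped core particle has outer alpha rings that gate the entrance and inner beta rings that carry the catalytic sites, and a regulatory particle on its end recognizes, unfolds and feeds in the substrate with a ring of ATPases. Plasma cells and myeloma cells make large amounts of immunoglobulin and depend strongly on this machinery, which is why proteasome inhibitors directed at the subunit encoded by PSMB5 are used against multiple myeloma. The transcription factor NFE2L1 is known to drive the subunit genes together through antioxidant response elements (ARE), and interferon induces the immunoproteasome subunits.

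To show the sequences on which these promoters differ, the 200 bases before the start site of 7 members are given below, from RefSeq on GRCh38.p14. PSMC1 had the largest difference between the groups, PSMB3 and PSMD3 carry an ARE core, PSMB10 and PSME2 carry an interferon element, and PSMA8 and PSMB11 had no promoter peak. Capitals mark every match to the searched motifs. Of the 43 members, 38 had a RefSeq promoter under their symbol.
PSMC1, chr14:90256353-90256552, plus strand: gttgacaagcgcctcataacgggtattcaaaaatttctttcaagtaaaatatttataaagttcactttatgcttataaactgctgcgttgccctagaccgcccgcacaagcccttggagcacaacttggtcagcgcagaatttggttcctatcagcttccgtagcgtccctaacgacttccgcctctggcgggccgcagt
PSMB3, chr17:38752541-38752740, plus strand: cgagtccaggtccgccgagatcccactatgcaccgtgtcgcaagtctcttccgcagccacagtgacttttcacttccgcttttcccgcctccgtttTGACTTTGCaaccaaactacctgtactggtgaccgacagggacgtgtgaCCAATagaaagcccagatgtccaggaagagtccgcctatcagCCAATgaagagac
PSMD3, chr17:39980607-39980806, plus strand: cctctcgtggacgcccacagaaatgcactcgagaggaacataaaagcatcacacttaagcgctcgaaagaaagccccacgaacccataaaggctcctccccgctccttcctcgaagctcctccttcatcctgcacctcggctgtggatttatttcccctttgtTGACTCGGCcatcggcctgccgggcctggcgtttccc
PSMB10, chr16:67936851-67937050, minus strand: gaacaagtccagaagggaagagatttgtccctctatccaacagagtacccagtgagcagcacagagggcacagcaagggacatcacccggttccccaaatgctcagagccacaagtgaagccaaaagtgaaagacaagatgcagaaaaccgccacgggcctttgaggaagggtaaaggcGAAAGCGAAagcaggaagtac
PSME2, chr14:24146611-24146810, minus strand: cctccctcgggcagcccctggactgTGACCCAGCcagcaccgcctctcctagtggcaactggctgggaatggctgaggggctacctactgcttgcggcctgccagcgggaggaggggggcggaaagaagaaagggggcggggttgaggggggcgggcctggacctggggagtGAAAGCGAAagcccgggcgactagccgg
PSMA8, chr18:26133669-26133868, plus strand: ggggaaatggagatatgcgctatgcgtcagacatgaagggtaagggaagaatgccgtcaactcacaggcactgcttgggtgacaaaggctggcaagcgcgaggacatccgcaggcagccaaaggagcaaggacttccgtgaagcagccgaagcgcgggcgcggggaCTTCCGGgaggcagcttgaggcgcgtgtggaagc
PSMB11, chr14:23042012-23042211, plus strand: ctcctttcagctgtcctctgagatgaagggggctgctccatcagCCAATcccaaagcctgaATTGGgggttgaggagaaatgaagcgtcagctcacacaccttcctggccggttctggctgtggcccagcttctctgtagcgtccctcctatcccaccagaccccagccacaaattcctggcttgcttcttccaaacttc

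In PSMB3 the capitals are an ARE core and 2 CCAAT boxes, and in PSMD3 they are an ARE core. PSMB10 and PSME2 share the same 9 letters of the interferon element close to the start site, and PSME2 has an ARE core farther upstream. PSMA8 shows an ETS motif and PSMB11 a pair of CCAAT boxes on opposite strands. No motif was found in the 200 bases of PSMC1, whose 1 match, an ETS motif, begins 10 bases past the start.

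Motifs were searched on both strands over 300 bases, 250 before the start site to 50 after it, in the 38 members and in all 15345 protein-coding genes that had such a promoter. The ARE core, TGACNNNGC, was in 11 member promoters (28.9%) and in 14.3% of all promoters. Its holders were PSMB3, PSMB9, PSMC4, PSMD1, PSMD3, PSMD5, PSMD9, PSMD12, PSME1, PSME2 and PSME4. The ETS motif, CCGGAAG, was in 12 members (31.6%) against 14.4% of all promoters, and the CCAAT box, CCAAT, in 18 (47.4%) against 36.6%. The interferon element, GAAANNGAA, was in 6 (15.8%) against 7.04%, namely PSMA4, PSMB4, PSMB10, PSMC2, PSME1 and PSME2. The E-box, CACGTG, was in 3 (7.89%) against 8.89%, and TGATGNAA, written for the ATF4-CEBP pair, in 0 against 2.54%. These letter matches overlap at single promoters, and they are a description of the sequence, not of binding. Median GC content was 61.7% in the members and 63% in all promoters.

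The libraries differ in the peaks themselves. CB-6644 libraries held 58563 to 71781 peaks and DMSO libraries 65569 to 79020. The shortest peak was 65 bp in CB-6644 2 and 91 bp in DMSO 1, against 131 to 152 bp in the other 4, and these 2 libraries are called the short-peak set below. No label gives a batch for them. Read totals are not in the peak lists, so the depth is unknown. Of 8 plasma cell marker genes, 7 had a promoter peak in all 6 libraries and the last, JCHAIN, in 3. Among 8 marker genes of other cells, CD3E, MS4A1, GATA1 and ALB had none in any library, while PAX5, CD14, EPCAM and COL1A1 had one in all 6.

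Nearly all proteasome genes had an open promoter in both groups. A promoter peak was called in all 6 libraries for 41 of the 43 members, against 66.2% of all protein-coding genes. The exceptions were PSMA8, which encodes the alpha subunit of the testis proteasome, and PSMB11, which encodes the catalytic subunit of the thymus proteasome. Neither had a promoter peak in any library. The nearest peak to a PSMA8 start site was 27.5 to 27.6 kb away in every library, in an intron of the gene. For PSMB11 it was 6.85 to 6.86 kb away and was the promoter peak of the neighbouring gene PSMB5. The immunoproteasome genes PSMB8, PSMB9 and PSMB10 were among the 41 with a peak in every library, treated or not.

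Peak strength was compared as the percentile of a peak's −log10 p-value within its own library. This needs no scaling of values, but a percentile depends on the number of peaks in the list, which differed between libraries. A member's promoter value is that of the region nearest to the start site of its canonical transcript. The median over members was 88.8, 89.0 and 90.2 in CB-6644 1 to 3, and 90.1, 90.2 and 89.1 in DMSO 1 to 3. Over the 6 libraries the median member promoter stood at percentile 90.3, and the median of all 10842 promoter regions called in all 6 libraries at 87.4. Percentiles from 75 upwards held 32 of the 41 members (78%) and 74% of all promoter regions. Member regions were a median of 786 bp long, against 858 bp for all promoters.

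**Figure D1:**
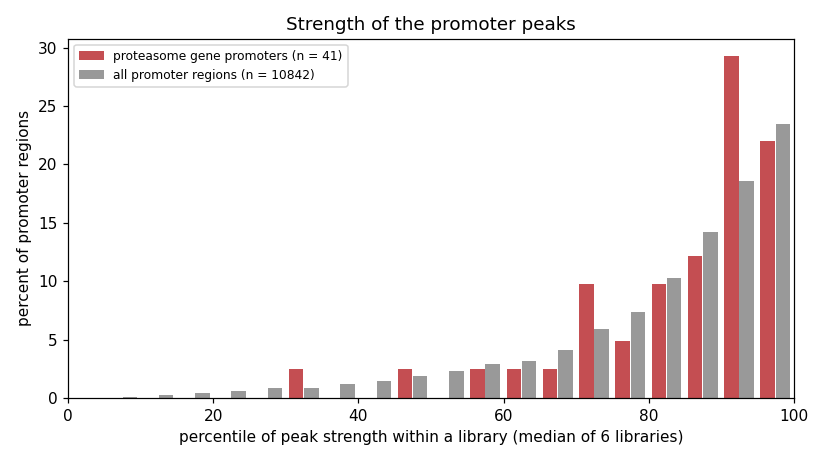
Percent of promoter regions in each 5-point bin of the within-library percentile of peak strength (median of 6 libraries), for the 41 proteasome gene promoters and all 10842 promoter regions called in all 6 libraries. Both distributions rise to the right, with 32 of 41 members at percentile 75 or above, and the lowest member, PSMB1, stands alone between 30 and 35.

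Strength differed widely between members. PSMC4, which encodes an ATPase of the regulatory particle, stood at percentile 99.4 to 99.9 in the 6 libraries. PSMD2, encoding the large scaffold subunit beside that ring, ranged from 96.3 to 99.7. At the other end, the region at the PSMB1 start site stood at 20.8, 29.6 and 11.1 with CB-6644 and at 35.9, 31.0 and 34.5 in DMSO. The ATPase gene PSMC2 ranged from 32.1 to 61.6, and PSMD1, the other large scaffold subunit, from 40.2 to 58.4. PSMB1 and PSMC2 each had a second, stronger promoter region at the start of a divergent neighbour, TBP (percentile 86.1 to 92.7) and DNAJC2 (78.0 to 88.9). The second PSMC2 region also holds another PSMC2 start site.

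Levels between libraries were compared on the fold enrichment of the peak over background, in log2, after quantile normalization over the 42089 merged regions called in all 6 libraries. Values on this scale are called normalized fold below. The 43 genes had 48 distinct promoter regions, of which 46 were called in all 6 libraries. limma called 0 of these 46 higher and 0 lower with CB-6644 at an adjusted p (Benjamini-Hochberg over 42089 regions) under 0.05. At an unadjusted p under 0.05 there were 0 higher and 2 lower, the PSMC1 promoter and the second region of PSME3. The latter lies at another PSME3 start and the start of BECN1. The share of all regions at this unadjusted threshold is not given here, so the 2 cannot be set against a background. At the adjusted threshold limma called 0.321% of all tested regions higher and 0.418% lower. Of the 10842 promoter regions it called 0.0369% and 0.0184%, all of them small shares. With the short-peak set as a term, 0 members were called higher and 1, PSMC1, lower, against 2.06% and 0.922% of promoter regions.

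Over the 41 main promoter regions the median log2 difference, CB-6644 minus DMSO, was 0.07, within the middle of all promoter regions (median 0.09, quartiles −0.01 and 0.19). Of the members, 28 had a positive and 13 a negative difference (31.7% negative), against 27.2% negative among all promoter regions. With normal scores of the −log10 p-value in place of the fold the split was 9 to 32, with a median of −0.07. The median of all tested regions, promoters or not, was −0.11 on that scale. The split of all promoter regions on it is not given here. On the normalized scale the groups did not overlap at 1 member with higher values under CB-6644, PSMA4, and at 3 with lower values, PSMC1, PSMB2 and PSMB10. On the deposited fold enrichment the groups overlapped at PSMA4, PSMB2 and PSMB10. Among all promoter regions, 9.96% were higher without overlap and 3.6% lower.

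**Figure D2:**
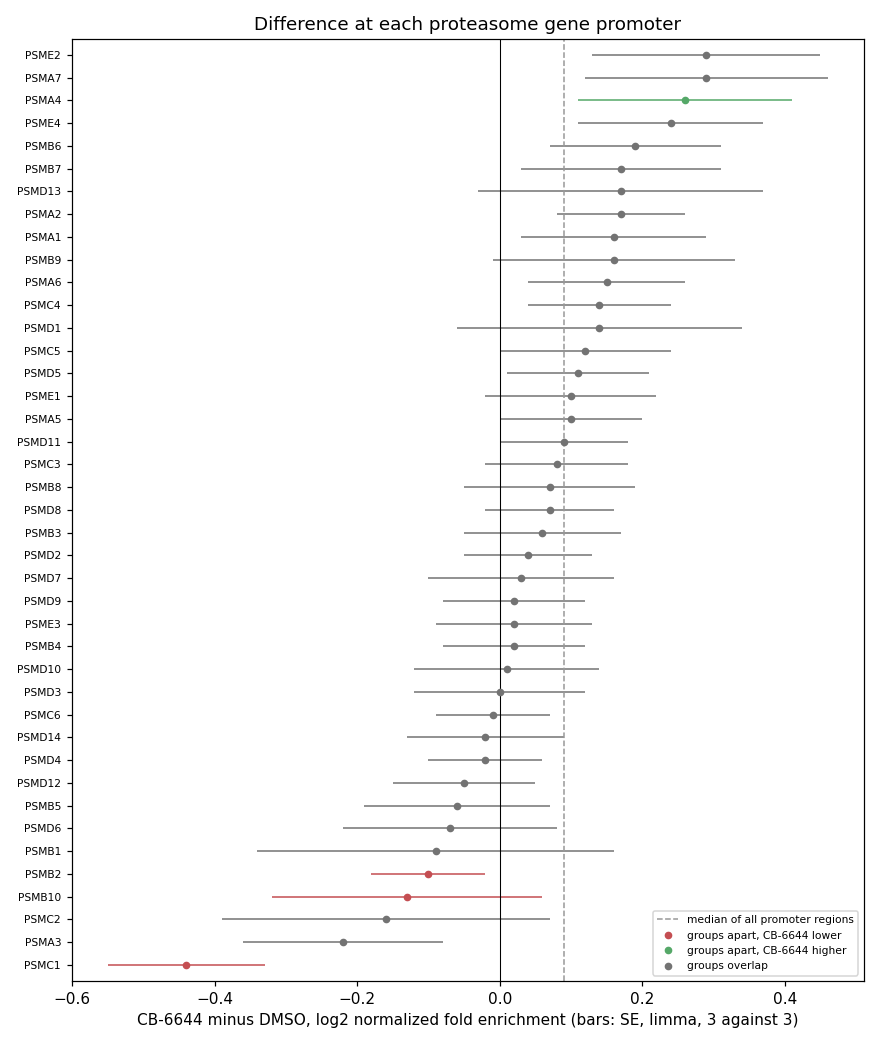
CB-6644 minus DMSO difference in log2 normalized fold at each of the 41 proteasome gene promoters (points) with the limma standard error (bars, 3 against 3 libraries), coloured by whether the groups overlap; the dashed line is the median of all promoter regions. Differences run from −0.44 at PSMC1 to 0.29 at PSME2, and PSMC1 alone lies below −0.22.

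PSMC1 encodes an ATPase subunit whose tail helps open the gate of the core. Its promoter region, chr14:90256442-90256815, covers the start site shown above and is the shortest of the 41 main regions, at 374 bp. The deposited fold enrichment was 19.4, 20.1 and 19.2 in CB-6644 1 to 3 and 34.3, 28.8 and 22.7 in DMSO 1 to 3. On the normalized scale the values were 21.2, 19.9 and 20.3 with CB-6644 and 27.9, 29.8 and 25.6 in DMSO. All 3 treated libraries were therefore below all 3 controls, by both measures. The means were 20.4 ± 0.695 and 27.8 ± 2.12 (SD, n = 3), a log2 difference of −0.44 with an SE of 0.11 (limma, adjusted p = 0.0923). With the short-peak set as a term the SE was 0.09 and the adjusted p in limma was 0.0139. The percentile of the peak did overlap, at 53.4, 66.0 and 47.1 against 76.7, 69.9 and 57.5. A second PSMC1 region, over a UTR of the gene and 3.31 kb from its nearest start site, differed by −0.33 (SE 0.20, limma adjusted p = 0.502).

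The other ATPase genes moved less. PSMC2 differed by −0.16 (SE 0.23), with normalized folds of 9.11, 12 and 7.39 against 11.3, 9.82 and 10.2. PSMC6 differed by −0.01 (SE 0.08), PSMC3 by 0.08 (SE 0.10) and PSMC5 by 0.12 (SE 0.12). PSMC4 had the highest difference of the ring, 0.14 (SE 0.10), from 29.2, 33.8 and 30.3 with CB-6644 and 31.1, 25.4 and 28.3 in DMSO. In these 5 genes the treated and control libraries overlapped.

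The 7 alpha-ring genes with an open promoter, PSMA1 to PSMA7, had differences between −0.22 and 0.29. With normal scores of the −log10 p-value 4 were positive. On the normalized scale 6 were positive, as were 7893 of all 10842 promoter regions. PSMA3 was the negative one, at 21.8, 16.5 and 18.1 with CB-6644 and 23.1, 20.5 and 21.8 in DMSO (log2 difference −0.22, SE 0.14, limma adjusted p = 0.513). PSMA4 had values of 19.3, 21.1 and 18.1 against 14.5, 17.8 and 16.9 (0.26, SE 0.15). Here every treated library lay above every control, by little between the nearest pair, CB-6644 3 and DMSO 2. The deposited folds of PSMA4 overlapped, at 17.9, 22 and 17.4 with CB-6644 against 17.4, 18.4 and 15.7 in DMSO. PSMA7, whose promoter region also holds the start of SS18L1, had 24.0, 32.5 and 28.1 against 27.9, 24.1 and 17.7 (0.29, SE 0.17). Its groups overlapped, since DMSO 1 and DMSO 2 both fell within the treated range. The difference was 0.18 without CB-6644 2 and 0.11 without DMSO 3.

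Of the constitutive catalytic genes, PSMB5 encodes the chymotrypsin-like site that bortezomib blocks, PSMB6 the caspase-like site and PSMB7 the trypsin-like site. PSMB5 had normalized folds of 20.4, 26.3 and 20 with CB-6644 and 24.1, 22.5 and 22.5 in DMSO, a log2 difference of −0.06 (SE 0.13). PSMB6 had 20.6, 23 and 23.9 against 21.2, 19.4 and 18.7 (0.19, SE 0.12). PSMB7 had 25.2, 19.4 and 21.2 against 19, 18.9 and 20.5 (0.17, SE 0.14). The libraries of the groups overlapped at all 3 genes, and each difference was under 2 standard errors.

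The immunoproteasome genes replace these catalytic subunits after interferon. PSMB8 and PSMB9 lie side by side on chromosome 6. The promoter region of PSMB8 also falls within 1000 bp of a PSMB9 start site, while the canonical start of PSMB9 lies in a 1550 bp region shared with the peptide transporter gene TAP1. PSMB8 had 23.6, 27.2 and 23.3 with CB-6644 and 25.9, 22.1 and 22.4 in DMSO (0.07, SE 0.12), and PSMB9 16.7, 21.4 and 15.9 against 17.1, 15.0 and 16.0 (0.16, SE 0.17). PSMB10, on chromosome 16, was among the weakest, at 7.67, 7.47 and 7.33 against 8.27, 8.43 and 7.89. Its treated libraries were all below its controls, but by a small step (−0.13, SE 0.19, limma adjusted p = 0.774). Its deposited folds overlapped, at 7.55, 6.76 and 7.22 with CB-6644 against 9.86, 8.72 and 7.24 in DMSO. A stronger second region within 1000 bp of another PSMB10 start site, at percentile 98.4 to 99.5, differed by 0.21 (SE 0.15).

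The remaining beta-ring genes, PSMB1 to PSMB4, encode subunits without a catalytic site, and differed by −0.10 to 0.06. PSMB2 had 27.6, 27.4 and 27.1 with CB-6644 against 31.0, 28.6 and 28.4 in DMSO (−0.10, SE 0.08). On this scale the treated values were close together and all below the controls. The deposited folds of PSMB2 overlapped, at 24.6, 32.2 and 24.7 with CB-6644 against 38.3, 27.7 and 24.7 in DMSO. PSMB1 had the lowest mean normalized fold of the members, 6.53, from 5.95, 8.67 and 4.94 against 6.52, 6.29 and 7.41 (−0.09, SE 0.25).

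In the rest of the regulatory particle the differences were small. PSMD4, a ubiquitin receptor, and the assembly chaperone PSMD5 had the highest mean normalized folds of all members, both 31.0. PSMD4 had 28.9, 32.9 and 30.8 with CB-6644 and 32.6, 30.2 and 31.0 in DMSO (−0.02, SE 0.08). PSMD14, which encodes the deubiquitinase that cuts ubiquitin off the substrate, had 22.4, 27.0 and 24.7 against 23.8, 24.6 and 26.8 (−0.02, SE 0.11). PSMD3, a lid subunit, had 22.1, 26.5 and 22.4 against 22.2, 23.3 and 25.4 (0.00, SE 0.12). The 8 lid genes spanned −0.07 to 0.17, and the chaperone genes PSMD5, PSMD9 and PSMD10 spanned 0.01 to 0.11, with overlapping libraries at every one.

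The activator genes PSME1 to PSME4 encode alternative caps of the core particle. All 4 differences were positive on this scale, as were 7893 of all 10842 promoter regions. With normal scores 2 were positive, and 3 when the promoter regions were normalized on their own. PSME2, a subunit of the interferon-induced cap, had 20.6, 27.6 and 22.5 with CB-6644 and 22.4, 17.1 and 18.1 in DMSO (0.29, SE 0.16, limma adjusted p = 0.429). The summit of this peak lay 740 to 779 bp upstream of the canonical PSME2 start, in a region shared with RNF31. PSME4, the single-chain nuclear cap, had 27.7, 29.8 and 26.2 against 28.0, 22.2 and 21.1 (0.24, SE 0.13, limma adjusted p = 0.421). In both, DMSO 1 of the short-peak set was the control library that reached the treated range. PSME1 and PSME3 differed by 0.10 (SE 0.12) and 0.02 (SE 0.11). No activator passed the test in limma, also with the short-peak set as a term.

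**Figure D3:**
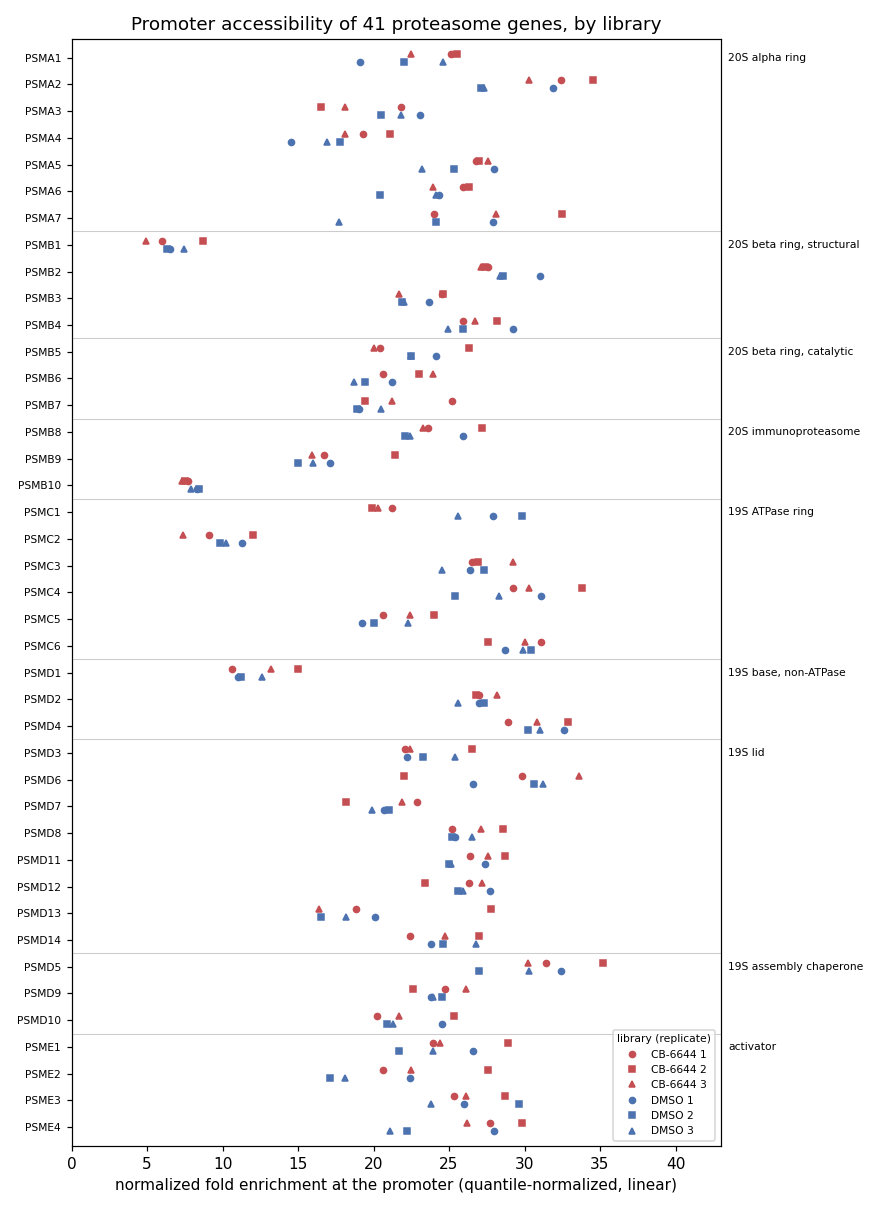
Normalized fold enrichment (linear scale) at the 41 proteasome gene promoters in each library, grouped by the subunit's place in the proteasome; red marks are CB-6644 and blue marks DMSO, with the symbol giving the replicate. Red and blue intermix at most genes, PSMC1 shows all red marks left of all blue ones, and PSMB1, PSMB10 and PSMC2 have the lowest levels.

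Several of these promoters are shared with a neighbour on the opposite strand or nearby, so that a peak there cannot be given to 1 gene. They include PSMB9 with TAP1, PSMA2 with MRPL32, PSMC5 with FTSJ3, PSMD10 with ATG4A, PSMD13 with SIRT3, PSME2 with RNF31 and PSME4 with ACYP2.

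Beyond the promoters, the windows of the 43 genes held 148 merged regions, of which 105 (70.9%) were called in all 6 libraries, against 51.3% of the 64056 regions in windows of all protein-coding genes. Member promoters accounted for 48 of them, promoters of other genes for 43, and 57 lay away from any promoter. Of these 57, 30 (52.6%) were called in all 6 libraries, against 40.9% of such regions near all genes. The lists were short at some genes. The windows of PSMA3, PSMB4 and PSMD5 held 1 region each, the gene's own promoter, whereas the long gene PSMA1 had 9.

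Regions called in all 3 libraries of a group and in none of the other were rare. There was 1 DMSO-only region (3.99% in all coding windows) and there were 2 CB-6644-only regions (0.545%). The DMSO-only count was 2 without CB-6644 2 and 3 without CB-6644 3 or DMSO 1. In the 4 libraries outside the short-peak set the counts were 4 and 3. With fewer libraries the rule is looser, and the shares over all coding windows under it are not given here. Sequences of the 1 DMSO-only and the 2 CB-6644-only regions follow, as 101 bases around the summit of the strongest peak on hg38. They show which stretches appear in only 1 group, with motif matches in capitals.
PSMA1 window, chr11:14636238-14636338, plus strand: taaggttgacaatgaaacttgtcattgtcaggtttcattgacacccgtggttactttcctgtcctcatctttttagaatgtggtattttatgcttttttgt
PSMD14 window, chr2:161353681-161353781, plus strand: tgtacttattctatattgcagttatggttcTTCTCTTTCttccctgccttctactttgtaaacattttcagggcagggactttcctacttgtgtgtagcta
PSMD3 window, chr17:39963977-39964077, plus strand: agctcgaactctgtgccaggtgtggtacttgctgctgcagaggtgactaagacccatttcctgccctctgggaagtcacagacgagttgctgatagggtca

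The DMSO-only region, chr11:14636191-14636448, lies in an intron of PSMA1, 7.30 kb from the nearest PSMA1 start site. It had fold enrichments of 8.85, 10.5 and 6.73 in DMSO 1 to 3, at percentiles 15.9, 21.2 and 5.60. These are weak peaks, near the lower end of each list. In PSMD14 the CB-6644-only region, chr2:161353642-161353816, is intronic and 27.6 kb from the nearest start site, with fold enrichments of 18.0, 11.6 and 11.6 at percentiles 46.7, 40.9 and 22.3. Its sequence has 1 match to the interferon element. The other CB-6644-only region, chr17:39963977-39964164, lies in the window of PSMD3 but within 1000 bp of a start site of GSDMA, which encodes a pore-forming protein, and had percentiles of 1.41, 12.1 and 5.56. Of the 3, the PSMD14 region had the highest percentiles, and a peak missing from a list may still lie just under the calling threshold.

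**Figure D4:**
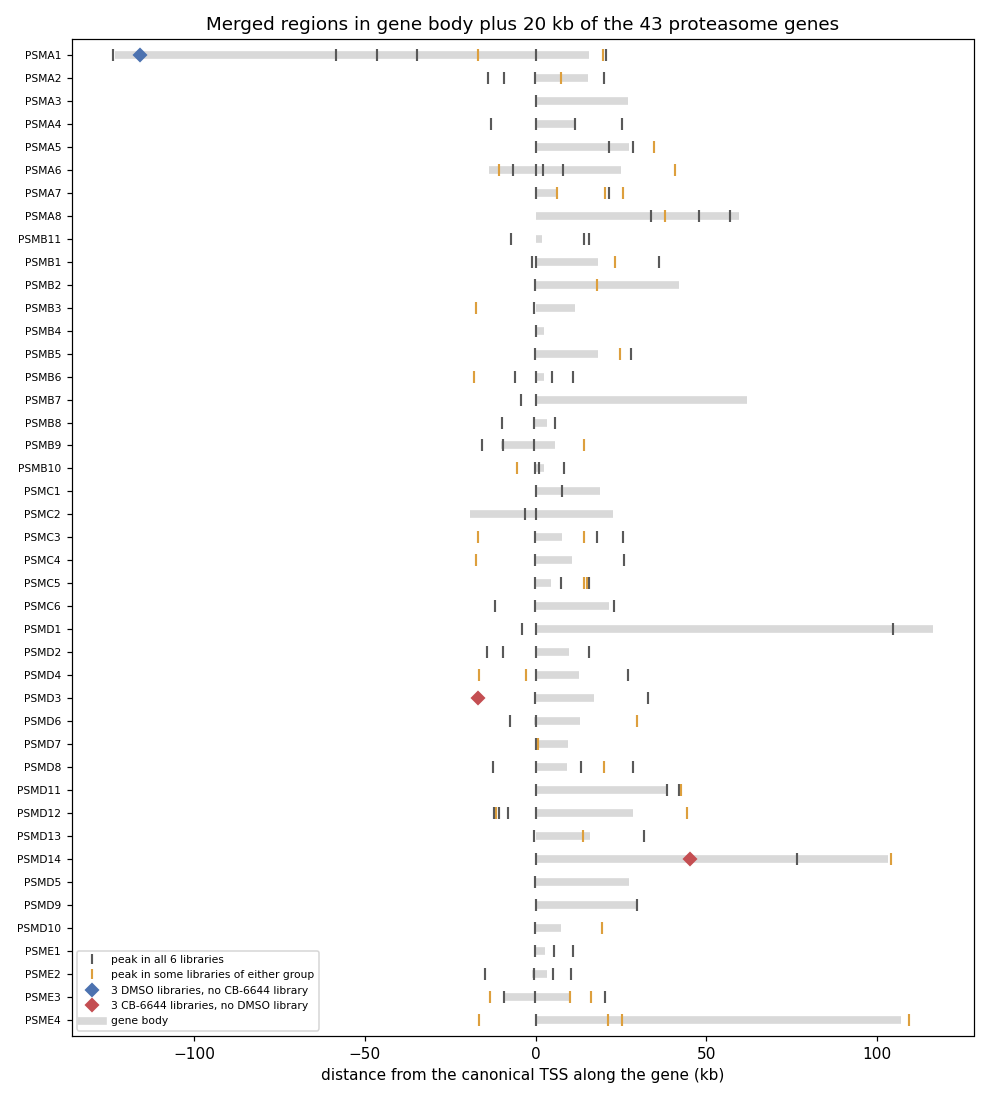
Merged regions in the gene body plus 20 kb of each of the 43 proteasome genes, by distance in kb from the canonical TSS; ticks are regions called in all 6 libraries (dark) or in some of them (orange), diamonds are group-only regions and grey bars are gene bodies. Dark ticks stand at the TSS of every gene except PSMA8 and PSMB11, and the 3 diamonds lie away from the TSS in PSMA1, PSMD3 and PSMD14.

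Among the 105 window regions called in all 6 libraries, limma called 0 higher and 0 lower. With the short-peak set as a term it called 1 higher and 3 lower, against 4.22% higher and 6.1% lower of all tested regions. The 3 lower ones were the PSMC1 promoter, a region over a UTR of PSMD1 and an intronic region of PSMA6. The PSMD1 region, chr2:231161220-231161614, had fold enrichments of 24.4, 23 and 22.3 with CB-6644 and 39.3, 31.9 and 28.1 in DMSO. Treated libraries were all lower (log2 difference −0.43, SE 0.10, limma adjusted p = 0.0826, or 0.0083 with the set term), and the percentiles, 66.5 to 71.7 against 87.0 to 88.4, did not overlap either. The PSMA6 region, chr14:35300311-35300579, had 14.0, 8.28 and 10.6 against 24.1, 22.4 and 15.1 (−0.76, SE 0.22, limma adjusted p = 0.132, or 0.0249 with the set term). The promoters of PSMD1 and PSMA6 themselves differed by 0.14 (SE 0.20) and 0.15 (SE 0.11).

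The share of a library's peaks that lay in the members' windows was higher with CB-6644. It was 0.212%, 0.233% and 0.215% in CB-6644 1 to 3 and 0.192%, 0.183% and 0.189% in DMSO 1 to 3, with means of 0.220% ± 0.0111 and 0.188% ± 0.00483 (SD, n = 3). All treated libraries were above all controls, by 0.0319 percentage points on average (two-sided exact permutation over libraries, p = 0.1, below which 3 against 3 cannot go). Among the 20000 strongest peaks of each library the difference was 0.0133 (SE 0.0172, exact permutation p = 0.5), and the separation of the groups was lost. It was 0.0153 within gene bodies only (SE 0.00404, exact permutation p = 0.1). The share of all peaks that lay at any promoter moved with it, from 25.4 to 26.9% in DMSO to 28.4 to 33.1% with CB-6644, and its part in the result was not tested. The libraries with CB-6644 also held fewer peaks both within the short-peak set and among the other 4. The number of peaks in the windows did not separate the groups. It was 126, 167 and 126 in CB-6644 1 to 3 and 152, 130 and 124 in DMSO 1 to 3. The share counts peaks, and 1 region can hold several. Peaks at member promoters numbered 66 in CB-6644 2 and 57 in DMSO 1, against 46 to 49 in the other 4. The part of this in the result was not tested.

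**Figure D5:**
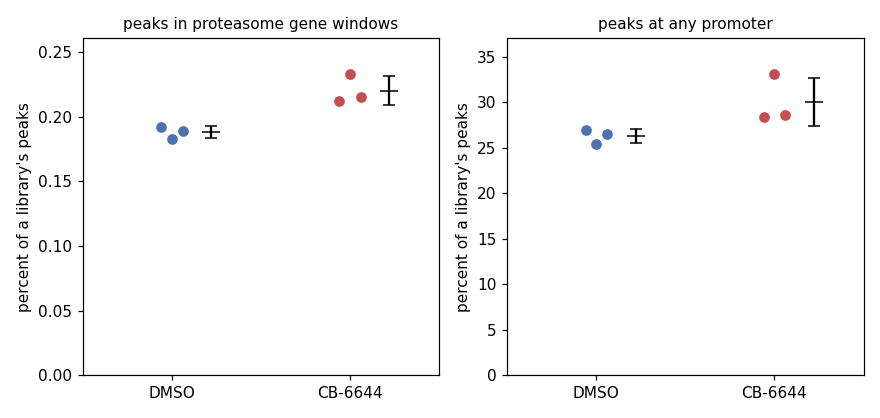
Percent of each library's peaks in the proteasome gene windows (left) and at any promoter (right), for 3 DMSO and 3 CB-6644 libraries (points) with the mean and SD (black bars); both axes start at 0. CB-6644 libraries are above DMSO libraries in both panels, at 0.212 to 0.233% against 0.183 to 0.192% on the left.

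Genes that build and control the proteasome had open promoters as well. All 12 assembly and associated genes and all 14 control and shuttling genes had a promoter peak in all 6 libraries, and limma called 0 of either list, also with the short-peak set as a term. The median log2 difference was 0.07 in the first list and 0.13 in the second, against 0.09 for all promoter regions. NFE2L1, the ARE-binding factor named above, had normalized folds of 21.5, 25 and 21.3 with CB-6644 and 20.4, 17.9 and 16.9 in DMSO (0.30, SE 0.14, limma adjusted p = 0.352). RAD23B, a shuttle that carries ubiquitinated proteins to the proteasome, had 16.3, 23.9 and 16.8 against 16.0, 13.8 and 13.9 (0.36, SE 0.19, limma adjusted p = 0.411). On the normalized scale, these and USP14, ECPAS and UFD1 are the 5 of the 26 genes with all treated libraries above the controls. On that scale 9.96% of all promoter regions were higher without overlap. The deposited folds of these 5 genes are not given here, and they could overlap as at PSMA4. VCP, which encodes the segregase p97 that extracts proteins for degradation, differed by 0.10 (SE 0.14). The lowest was SEM1, a small lid subunit outside the naming rule, at 17.8, 16.2 and 20.3 against 18.6, 25.1 and 25.9 (−0.35, SE 0.16, limma adjusted p = 0.366).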

How the data were processed

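Omni-ATAC had been run on 3 CB-6644 and 3 DMSO libraries of MM.1S cells. Per the labels, alignment to hg38 used Bowtie2 2.4.2, and the authors called peaks in each library with MACS3 3.0. Each deposited list gives a fold enrichment over background (a linear ratio) and a −log10 p-value and −log10 q-value per peak. Peak names mention a mapping-quality filter and removal of duplicates. Other calling settings, and whether reads were shifted for the transposase, are not given in the sources used here. Read counts were not analysed here, so the count model of the study could not be run, and the depth and its precision are unknown.

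Peaks overlapping by at least 1 bp were merged into 89196 regions. The strongest peak per library represented a region. Fold enrichment of the 42089 regions called in all 6 libraries was taken as log2, quantile-normalized and fitted in limma 3.58.1 (R 4.3.3) with a trend, with Benjamini-Hochberg adjustment across all of these regions. A call was an adjusted p under 0.05. The fit was tested on simulated data. Shares of peaks were compared by an exact two-sided permutation test (scipy 1.17.1). Replicates are separate libraries of 1 cell line, and nothing says that they came from separate cultures, so p-values measure only the spread between these libraries.

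The members and lists were chosen with earlier results of these data known. Values per library are given for catalytic, immunoproteasome, tissue-restricted and PSMD14 genes, ATPases at the extremes, the 5 largest differences each way, genes with a group-only region or without a promoter peak, and the highest and lowest levels. The promoter region nearest to the canonical start site (GENCODE 44) was chosen after seeing that the strongest region lay at a neighbour's start at some genes. Same-numbered libraries were fitted with and without a block.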

Additional observations from a re-analysis of the deposited data

How the results depend on the processing

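The fit called 0 member promoters higher with CB-6644 under every alternative run and 0 lower, except for 1 (PSMC1) with the short-peak set as a term. In some runs this says nothing about the members. Median centring, the replicate block and leaving out CB-6644 3 or any 1 DMSO library called 0 of all regions. Leaving out CB-6644 1 called 0 of all regions higher and 17 lower. PSMC1 itself stayed negative in all 15 alternatives, between −0.51 and −0.34, with limma adjusted p from 0.0139 to 0.451. Some of these could not move the value. The set term and the replicate block are balanced over the groups and left it at −0.44, and PSMC1 has only 1 promoter region to choose from. The −0.34 with normal scores is in units of that score, not log2 fold. Over all regions, the calls were 135 higher and 176 lower, against 1777 and 2566 with the set as a term, 1439 and 2073 in the 4 long-peak libraries, 546 and 2709 with normal scores, 0 and 0 with median centring, and 0 to 764 and 0 to 1130 on leaving out 1 library, so the calls depend on these choices. The cause was not tested.

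The labels give both groups replicates 1 to 3, and deviations of same-numbered libraries correlated at −0.48, −0.33 and 0.33. Of the treated libraries CB-6644 3 alone correlated best with its own number. The highest correlation, 0.57, joined CB-6644 2 and DMSO 1, the short-peak set, so these values cannot tell whether same-numbered libraries are pairs. The replicate block gave 0 and 0 calls over all regions, and a paired difference in the share of peaks of 0.0319 percentage points (exact permutation p = 0.25, the smallest it can give).

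A promoter peak in all 6 libraries was kept by 41 members on leaving out any library, by 39 at the 5′ end of the gene record only and by 34 among the 20000 top peaks, where PSMD1 had none and PSMC1 had one in 1 library. The share of peaks differed by 0.0255 to 0.0358 percentage points on leaving out 1 library, by 0.0133 among the 20000 top peaks and 0.0153 in gene bodies only, both over 1.5 times smaller. DMSO-only regions in the windows numbered 1, and 4 with 50 kb flanks, 0 among the 20000 top peaks, 0 with equal numbers of peaks, 3 where 2 of 3 libraries sufficed and 4 in the 4 long-peak libraries. They ranged from 1 to 3 on leaving out 1 library, with 2 without CB-6644 2 and 3 without CB-6644 3 or DMSO 1. CB-6644-only regions numbered 2, and 1 in gene bodies only, 0 among the 20000 top peaks, 1 with equal numbers of peaks and 5 where 2 of 3 libraries sufficed. They ranged from 2 to 3 on leaving out 1 library. The shares over all coding windows under these settings are not given here, so the counts do not set the members apart from other genes.

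Some uncalled differences changed sign. With normal scores PSMA1 was at −0.07, PSMB7 at −0.00, PSMB8 at −0.23 and PSMB9 at −0.05. Median centring put PSMB5 at 0.02, PSMD14 at 0.07, PSMD3 at 0.08 and PSMD4 at 0.11. With all regions called in at least 1 library, PSMB1 was at 0.71, PSMB10 at 0.18, PSMC2 at 0.01 and PSMD3 at 0.01. On leaving out 1 library, the values ran from −0.08 to 0.05 for PSMD14, −0.07 to 0.05 for PSMD3, −0.06 to 0.03 for PSMD4, −0.33 to 0.10 for PSMB1, −0.16 to 0.01 for PSMB5 and −0.33 to 0.01 for PSMC2. The strongest promoter region, an alternative chosen after seeing the data, gave 0.15 for PSMB1, 0.21 for PSMB10 and 0.21 for PSMC2. The PSMB1 region is at a neighbour's start and the PSMB10 region at another PSMB10 start. The PSMC2 region is at another PSMC2 start and at a neighbour's start.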

Other observations

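Several start sites in the windows belong to neighbours of the proteasome genes. The promoter region of PITPNC1, a phosphatidylinositol transfer protein gene in the window of PSMD12, was the 1 window region called higher with the short-peak set as a term. Its fold enrichment was 18.2, 28.3 and 16.1 in CB-6644 1 to 3 and 21.9, 14.5 and 12.9 in DMSO 1 to 3, a normalized log2 difference of 0.42 (SE 0.19, limma adjusted p = 0.361, or 0.0493 with the set term). The groups overlapped on the deposited scale, since DMSO 1 exceeded CB-6644 1 and CB-6644 3.

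The second promoter region of PSME3 holds another PSME3 start site and lies at the start of the autophagy gene BECN1. It stood at percentiles 83.6, 85.7 and 83.7 with CB-6644 and at 89.8, 90.7 and 90.2 in DMSO. By percentile and on the normalized scale, treated libraries were all below the controls there (log2 difference −0.19, SE 0.08, limma adjusted p = 0.312). The deposited folds overlapped, at 25.3, 31.5 and 25.1 with CB-6644 against 37.2, 30.8 and 27.6 in DMSO. Among all promoter regions, 3.6% were lower without overlap on the normalized scale. The region at the canonical start of PSME3 differed by 0.02 (SE 0.11). Second regions at TBP, DNAJC2 and PDE3B, the neighbours of PSMB1, PSMC2 and a distant PSMA1 start, differed by 0.15 (SE 0.12), 0.21 (SE 0.16) and 0.25 (SE 0.19), with limma adjusted p of 0.583, 0.58 and 0.579.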
